A study of Homo sapiens with 3 samples.

Results

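The 58 genes described here encode proteins that build the spliceosome or steer the choice of splice sites. They are the protein-coding genes of GENCODE release 44 on hg19 whose names start with SRSF, HNRNP, SNRP, SF3A or SF3B, among 19881 protein-coding genes with a canonical transcription start site (TSS). They fell into 4 families, with 12 SRSF genes, 25 HNRNP genes, 12 SNRP genes and 9 SF3A or SF3B genes (SF3 genes in the following). Of the 58 genes, 48 carried an ETS1 peak at the TSS, which is 82.8% beside 55.9% of all protein-coding genes. Among genes with a promoter rich in CpG these shares were 90.6% and 74.2%. The 48 genes were all 9 SF3 genes, 11 of the 12 SNRP genes, 19 of the 25 HNRNP genes and 9 of the 12 SRSF genes. The genes without a peak included HNRNPM, SNRPN, SRSF11 and several copies of HNRNPA1 and HNRNPC.

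The SRSF genes encode SR proteins, which bind exonic enhancer sequences and recruit the splicing machinery to nearby splice sites. The HNRNP genes encode heterogeneous nuclear ribonucleoproteins, which coat nascent transcripts and often act against SR proteins at the same exons. The SNRP genes encode the Sm proteins that form a ring around the spliceosomal small nuclear RNAs, and proteins particular to the U1 and U2 particles. The SF3A and SF3B genes encode subunits of the U2 particle that hold the intron branch point. ETS1 is a transcription factor of the ETS family, which binds DNA at sites with a GGAA core, most strongly where that core is preceded by CC and followed by G.

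The data are ChIP-Seq measurements of ETS1 (chromatin immunoprecipitation followed by sequencing) in untreated SCC25 cells, an established line from a tongue squamous cell carcinoma with a mesenchymal phenotype. Of the 3 ChIP samples, 2 were made with C20 and 1 with 501A, which are both polyclonal antibodies raised against ETS1. The authors combined these samples into 1 consensus list of 26970 peaks by IDR, a procedure that retains peaks with reproducible ranks. The list holds positions only, so a peak here is a region that was reproducibly enriched, it carries no depth, and no spread between replicates or antibodies could be given. The study's methods give reads per sample only as a range over the samples. The list cannot be checked against markers of the cell type for the same reason. Shares are given with 95% Wilson confidence intervals, which cover counting error only. No test was run on the shares, because genes are not replicates of a condition. Peak positions are 1-based on hg19.

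The letters of a strong ETS site were present in 18 of the 58 promoters, among them 7 of 12 SNRP and 6 of 9 SF3 promoters. In the SRSF (16.7%) and HNRNP (12.0%) promoters the share was close to the 14.1% of all promoters. A promoter was taken as the 250 bases before to 50 bases after the TSS, and the letters CCGGAAG, a strong ETS site, were searched on both strands. The following stretches are from 1 gene of each family with CCGGAAGT, the longer form of these letters, and from SF3B6 and SNRPC, which were added after their sequences had been seen because each holds more than 1 match. They are given 5′ to 3′ on the strand of the gene in GRCh37, and capitals mark CCGGAAG or its reverse complement.
SRSF4, chr1:29508579-29508658, minus strand: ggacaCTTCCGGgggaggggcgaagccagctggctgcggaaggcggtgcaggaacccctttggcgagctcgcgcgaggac
HNRNPD, chr4:83295313-83295392, minus strand: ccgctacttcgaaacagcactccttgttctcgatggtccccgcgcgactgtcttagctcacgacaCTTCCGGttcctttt
SNRPA1, chr15:101835492-101835571, minus strand: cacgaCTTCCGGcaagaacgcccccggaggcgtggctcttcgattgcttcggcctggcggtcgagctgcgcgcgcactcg
SF3A3, chr1:38455696-38455775, minus strand: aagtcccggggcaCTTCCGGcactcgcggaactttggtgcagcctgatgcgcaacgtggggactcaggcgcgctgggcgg
SF3B6, chr2:24299281-24299360, minus strand: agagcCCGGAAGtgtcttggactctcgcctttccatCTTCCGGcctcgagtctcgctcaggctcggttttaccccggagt
SNRPC, chr6:34725063-34725142, plus strand: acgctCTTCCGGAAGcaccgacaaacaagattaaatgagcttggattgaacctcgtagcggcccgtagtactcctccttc

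In SRSF4, HNRNPD, SNRPA1 and SF3A3 the letters lay on the strand opposite to the gene. The matches of SRSF4 and HNRNPD began at -241 and -183 bp from the TSS, and HNRNPD was the only HNRNP gene with CCGGAAGT. All of the matches shown lay inside a peak of the list, which was nearly given because the peaks of these genes covered the TSS. In SF3B6 a match on the strand of the gene was followed by a match on the opposite strand. In SNRPC the matches on the opposite strands overlapped and formed a palindrome.

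The following stretches are the 100 bases before the TSS of 1 gene of each family that had a peak but no CCGGAAG in the promoter. Capitals mark CCAAT or its reverse complement, letters that the trimeric factor NF-Y binds at many promoters.
SRSF1, chr17:56084608-56084707, minus strand: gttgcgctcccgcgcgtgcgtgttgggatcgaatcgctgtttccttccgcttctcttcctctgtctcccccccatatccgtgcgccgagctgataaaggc
HNRNPA0, chr5:137090053-137090152, minus strand: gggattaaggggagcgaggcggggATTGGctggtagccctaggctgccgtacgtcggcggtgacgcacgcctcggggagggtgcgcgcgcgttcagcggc
SNRPA, chr19:41257008-41257107, plus strand: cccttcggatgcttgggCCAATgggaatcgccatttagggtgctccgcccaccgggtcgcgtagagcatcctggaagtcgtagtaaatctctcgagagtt
SF3B3, chr16:70557619-70557718, plus strand: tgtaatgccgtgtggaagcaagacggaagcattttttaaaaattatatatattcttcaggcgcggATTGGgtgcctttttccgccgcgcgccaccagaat

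The promoters of HNRNPA0, SNRPA and SF3B3 held CCAAT on either strand in this stretch, and SRSF1 did not. These genes were taken from those with a peak, and all 4 stretches lay inside it.

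ETS1 peaks were found at the start of most genes of the spliceosome families. The TSS window ran from 5 kb upstream to 1 kb downstream of the canonical TSS, and a peak was placed by its midpoint. Of the 58 genes, 48 had a peak in this window (82.8%, 71.1 to 90.4%), beside 55.9% of all protein-coding genes (11114 of 19881). A peak covered the TSS itself in 48 of the 58 genes (82.8%), beside 52.2% of all protein-coding genes. Among genes with a peak in the window, the nearest peak covered the TSS in 48 of 48, beside 92.0% of all such genes (10230 of 11114). With the midpoint within 500 bp of the TSS, 43 of the genes (74.1%) were counted, beside 46.7% of all genes.

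More of these genes than of all genes had a promoter rich in CpG, a common type at genes used in every cell. A promoter was called CpG-rich where the 500 bp on each side of the TSS had a GC content of at least 50% and a ratio of observed over expected CpG of at least 0.6. This held for 53 of the 58 genes (91.4%), beside 65.1% of all protein-coding genes. Among CpG-rich promoters, 48 of 53 genes had a peak in the TSS window (90.6%, 79.7 to 95.9%), compared with 74.2% of all genes with a CpG-rich promoter. The gap to all genes was smaller than without this restriction. The interval counts genes as separate draws, although HNRNPUL2 and HNRNPUL2-BSCL2 share a peak. The 58 genes were also chosen with earlier results of these data known, so the interval is not a test of this gap. Of the 5 genes with another promoter none had a peak, beside 21.8% of all such genes, which with 5 genes leaves an interval up to 43.4%.

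**Figure D1:**
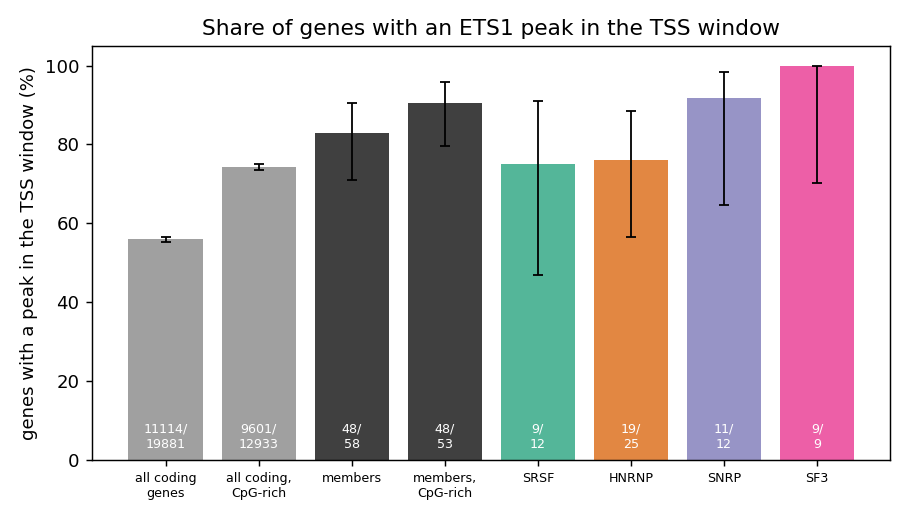
Bars give the percentage of genes with an ETS1 peak in the TSS window for all protein-coding genes, for the 58 splicing genes (members), for the CpG-rich promoters of each, and for the 4 families, with numbers of genes at the foot and 95% Wilson intervals as error bars. The SF3 genes stood at 100% and the SRSF genes at 75%, and the intervals of the 4 families overlapped.

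Of the SRSF genes, 9 of 12 had a peak at the TSS (75%, 46.8 to 91.1%), an interval that contains the share of all protein-coding genes. In SRSF1, which encodes a founding SR protein and is a known oncogene, the peak of 1740 bp (chr17:56083740-56085479) was centred 2 bp upstream of the TSS and ran from 872 bp upstream to 867 bp downstream. In SRSF2, whose product binds exonic enhancers and is mutated in myeloid neoplasms, the peak was 2305 bp wide (chr17:74732213-74734517) and centred 48 bp downstream. In SRSF3, the smallest SR protein, the peak of 1498 bp (chr6:36561057-36562554) was centred 334 bp upstream. The peaks of these 3 genes covered the TSS on both sides. The midpoints in SRSF4, SRSF5, SRSF6, SRSF7, SRSF9 and in the TSS-covering peak of SRSF10 lay downstream of the TSS, between 121 and 445 bp.

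SRSF10 had a second, narrow peak upstream. Its peak over the TSS was 886 bp wide (chr1:24306243-24307128) with a midpoint at 132 bp, and a peak of 359 bp (chr1:24307232-24307590) lay 594 bp upstream of the TSS. The latter was the narrowest of the 50 distinct TSS-window peaks of the 58 genes. The TSS window of SRSF10 was also the least unique in sequence. Of its stretches of 50 bases, the length of the reads, 8.42% occurred once in the primary assembly and 95.4% occurred once when the chromosomes alone were counted, because an unlocalized contig holds a copy. In the other 57 genes at least 75% of the stretches were unique. No peak of the list lay on an unplaced contig, and the part of this copy in the peaks of SRSF10 was not tested.

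Of the HNRNP genes, 19 of 25 had a peak (76.0%, 56.6 to 88.5%), beside 55.9% of all protein-coding genes, a share close to the lower bound. At CpG-rich promoters it was 19 of 21 (90.5%, 71.1 to 97.3%), an interval that contains the 74.2% of all such promoters. Both intervals count HNRNPUL2 and the readthrough gene HNRNPUL2-BSCL2, which share 1 peak, as separate genes, so no separation from all genes is read from them. HNRNPA1, whose product represses exons and counteracts SR proteins, had 2 peaks in its window. The peak over its TSS was 639 bp wide (chr12:54674406-54675044) with a midpoint at 215 bp in intron 1, and a peak of 973 bp (chr12:54673221-54674193) was centred 803 bp upstream, 199 bp from the TSS of CBX5. HNRNPA2B1, a close relative of HNRNPA1 that also sorts RNA in the cytoplasm, had a peak of 2887 bp (chr7:26239252-26242138) centred 329 bp upstream. HNRNPC, which binds uridine tracts and keeps cryptic exons out of mRNA, had a peak of 1018 bp (chr14:21737151-21738168) centred 58 bp upstream. HNRNPK, which binds cytidine-rich RNA, had a peak of 2313 bp (chr9:86594146-86596458) centred 172 bp upstream.

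The widest peaks of the set belonged to this family, and in several genes the midpoint lay away from the TSS. HNRNPL, which binds CA repeats, had the widest peak, at 4103 bp (chr19:39339806-39343908), and it reached 3282 bp upstream and 820 bp downstream of the TSS. HNRNPF, which binds guanosine runs, had a peak of 3017 bp (chr10:43902502-43905518) with a midpoint at 624 bp in intron 1. HNRNPU, a nuclear matrix protein, had a peak of 2020 bp (chr1:245026170-245028189) with a midpoint at 666 bp in exon 1. HNRNPUL1, a relative of HNRNPU, had a peak of 2748 bp (chr19:41768984-41771731) over the TSS and a peak of 966 bp (chr19:41767812-41768777) centred 1983 bp upstream. HNRNPUL2 and the readthrough gene HNRNPUL2-BSCL2 shared a peak of 2623 bp (chr11:62493889-62496511), so that the 51 pairs of gene and peak came from 50 peaks.

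Of the SNRP genes, 11 of 12 had a peak (91.7%, 64.6 to 98.5%), beside 55.9% of all protein-coding genes. All 12 promoters were CpG-rich, and the interval contains the 74.2% of all CpG-rich promoters. SNRPB, which encodes the Sm proteins B and B', had a peak of 1162 bp (chr20:2450699-2451860) with a midpoint at 156 bp in intron 1. SNRPD1, which encodes Sm protein D1, had a peak of 1015 bp (chr18:19191994-19193008) with a midpoint at 226 bp in intron 1. SNRPE, which encodes Sm protein E, had a peak of 1678 bp (chr1:203829508-203831185) centred 381 bp upstream. The peak of SNRPD3 was 2431 bp wide (chr22:24949993-24952423) and centred 759 bp upstream, only 102 bp from the TSS of its neighbour GUCD1, and it reached 456 bp past the SNRPD3 start. SNRPF, which encodes Sm protein F, had the narrowest peak of the family, 656 bp centred 6 bp downstream.

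All 9 SF3 genes had a peak (100%, 70.1 to 100%), beside 55.9% of all protein-coding genes. Their promoters were all CpG-rich, and the interval contains the 74.2% of all CpG-rich promoters. SF3B1, which encodes the U2 subunit that clamps the branch point and is recurrently mutated in cancer, had a peak of 979 bp (chr2:198299260-198300238) centred 3 bp downstream of the TSS. SF3A1, a scaffold of the SF3A complex, had a peak of 1326 bp (chr22:30752164-30753489) with a midpoint at 57 bp. SF3B4, whose loss of function causes a craniofacial syndrome, had a peak of 911 bp (chr1:149899392-149900302) centred 152 bp upstream. SF3B6, which touches the branch point adenosine, had a peak of 1700 bp (chr2:24298879-24300578) centred 532 bp upstream, the only midpoint in this family over 500 bp from the TSS.

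**Figure D2:**
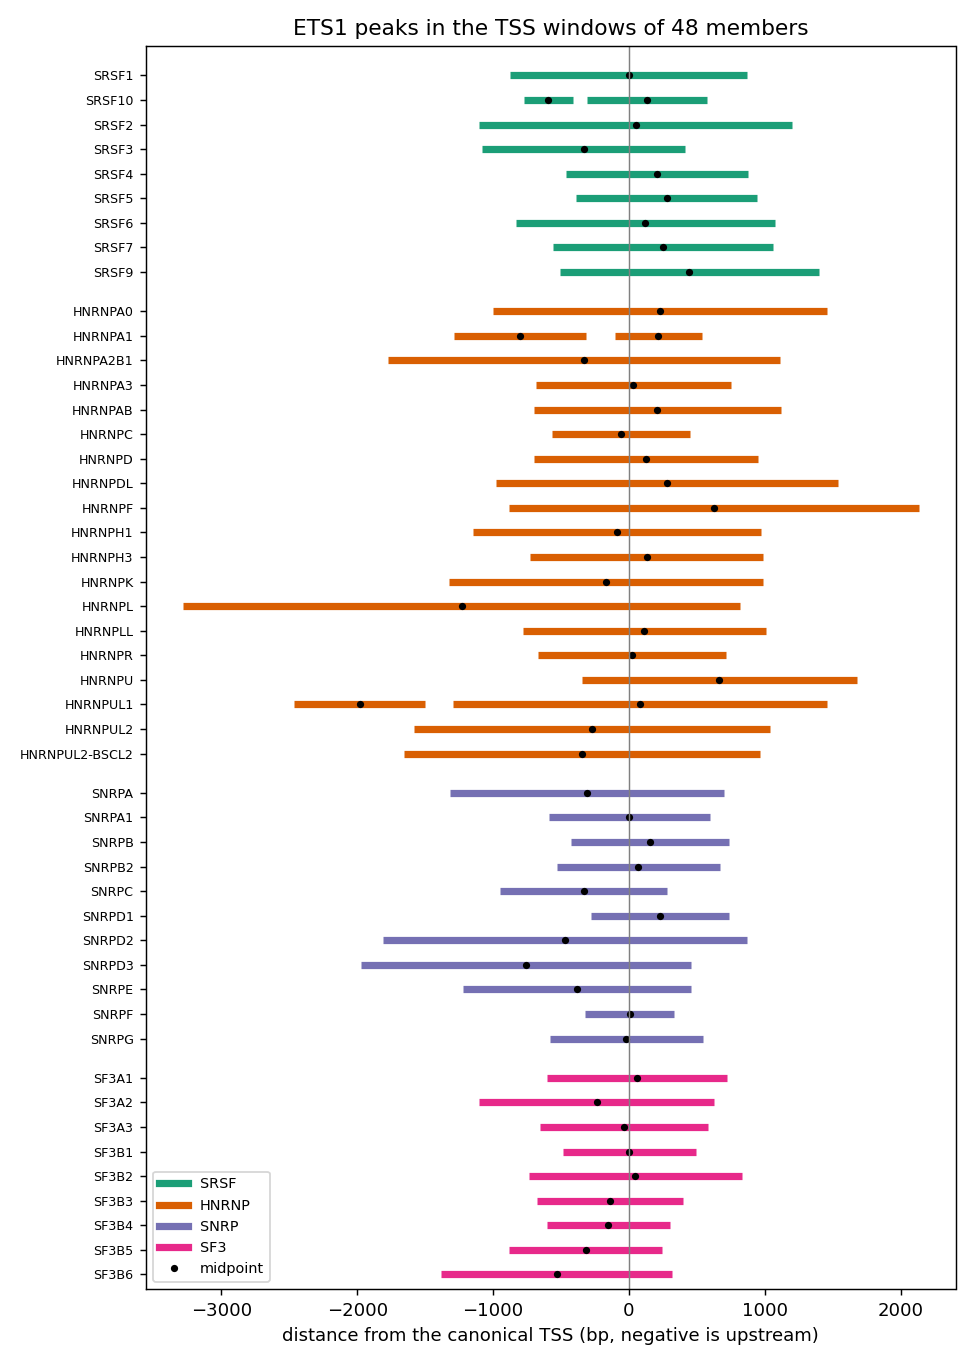
Horizontal bars show the extent of every ETS1 peak in the TSS windows of the 48 genes with a peak, in bp from the canonical TSS with upstream to the left, coloured by family and with the midpoint as a dot. A bar crosses the TSS in all 48 genes, HNRNPL reaches furthest upstream at 3282 bp, and HNRNPA1, HNRNPUL1 and SRSF10 have 2 bars.

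The remaining 10 genes had no peak in the window. Of these, 1 had a peak in the gene body, 6 had a peak only within 50 kb of the TSS and 3 had none within that distance. HNRNPM, SNRPN, SRSF11, SRSF12 and HNRNPH2 had CpG-rich promoters, and HNRNPA1L2, HNRNPA1L3, HNRNPCL1, HNRNPCL2 and SRSF8 did not. SRSF8, with a CpG ratio of 0.858 and a GC content of 49.7%, fell just short on GC content alone.

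HNRNPM, which promotes mesenchymal splice forms such as that of CD44, had no peak at its start. The CpG ratio of its promoter was 0.985, its GC content was 65.6%, and 95.9% of the 50-base stretches of its window were unique. The nearest peak was 503 bp wide and lay 20987 bp upstream, at position 25758 of 26970 in the list. SNRPN, an imprinted Sm protein gene of neurons expressed from the paternal allele, had a CpG ratio of 0.668 and no peak within 50 kb, the nearest being 483877 bp downstream. HNRNPH2 shares its promoter with GLA, which starts 297 bp away on the other strand, and neither had a peak. The nearest peak to HNRNPH2 was 17295 bp upstream at the start of RPL36A.

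SRSF11, an SR-related protein, depended on which start was taken. No peak lay in the window of its canonical TSS, but a peak of 832 bp centred 15766 bp upstream covered an annotated upstream start of SRSF11 and was centred 35 bp from the TSS of LRRC40. The nearest peak to SRSF12, an SR protein that represses splicing, was 36913 bp downstream near PNRC1, and that of SRSF8, a retrogene, was 23219 bp downstream near ENDOD1. HNRNPA1L2 and HNRNPA1L3 are copies of HNRNPA1, and HNRNPCL1 and HNRNPCL2 are copies of HNRNPC. The nearest peak to HNRNPA1L2 was 10205 bp downstream near SUGT1, and that to HNRNPA1L3 was 14212 bp upstream. HNRNPA1L3 also had a peak in intron 1, 83529 bp from its TSS. HNRNPCL1 and HNRNPCL2 had none within 50 kb, and 88.0% and 84.6% of the stretches in their windows were unique. In the part downstream of the TSS these shares were 72.6% and 72.8%, and in HNRNPA1L2 it was 51.3%. The part of this in their lack of a TSS-window peak was not tested.

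**Figure D3:**
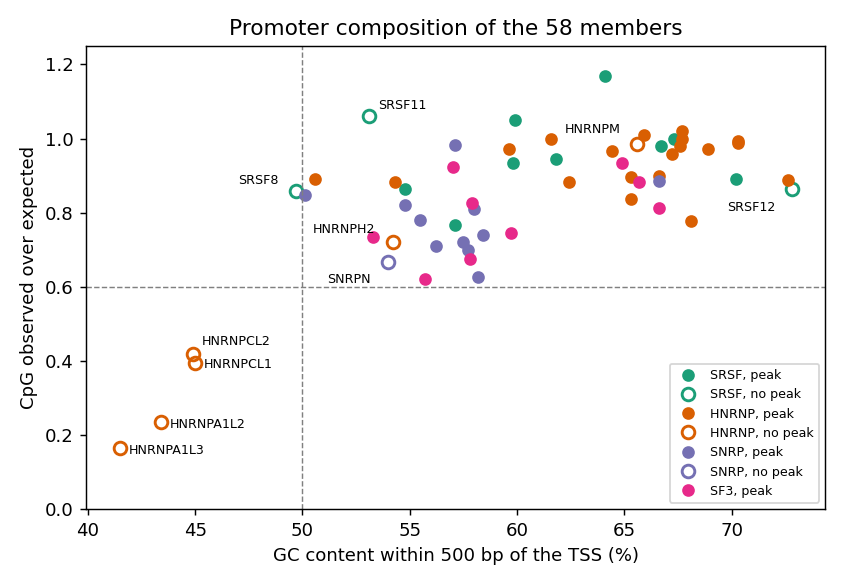
Each circle is 1 of the 58 genes, with the GC content (%) and the ratio of observed over expected CpG of the 500 bp on each side of the TSS, filled where the TSS window had an ETS1 peak and open where it did not. Dashed lines mark a GC content of 50% and a ratio of 0.6, and the 5 open circles outside the upper right field include SRSF8 at 49.7% GC.

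The distance of the peaks from the TSS was measured to their midpoints. The median distance from the TSS to the midpoint of the nearest peak was 189 bp in the 48 genes (quartiles 66.2 and 322 bp), and 187 bp in all protein-coding genes with a peak in the window (quartiles 86 and 360 bp). With upstream as negative, the quartiles were -245 and 138 bp in the 48 genes and -152 and 206 bp in all such genes. The midpoint lay upstream in 21 genes and downstream in 27. In 5 genes, HNRNPF, HNRNPL, HNRNPU, SF3B6 and SNRPD3, it lay over 500 bp away. Of the 51 pairs, 24 midpoints lay upstream of the gene, 20 in exon 1 and 7 in intron 1. The share of genes with 2 or more peaks in the window was 5.17% (3 of 58), beside 5.57% of all genes.

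Widths are given as medians over the distinct TSS-window peaks. The peaks of the 58 genes had a median width of 1594 bp (quartiles 1138 and 2022 bp), compared with 1294 bp for all TSS-window peaks (quartiles 944 and 1780 bp) and 1335 bp for those at CpG-rich promoters. The HNRNP peaks were widest with a median of 1919 bp, followed by the SRSF peaks with 1560 bp, the SF3 peaks with 1238 bp and the SNRP peaks with 1206 bp. HNRNPL, HNRNPF and HNRNPA2B1 had the widest and SRSF10, HNRNPA1 and SNRPF the narrowest. The spread within each family was larger than the gap between neighbouring medians.

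The order of the lines in the list was not by position in the genome. The authors sorted the MACS2 peaks by p-value before IDR, but whether the deposited list keeps that order is not given in the sources used here. The median position of the peaks was 5936 for the 58 genes and 10931 for all TSS-window peaks. SNRP peaks had a median of 3268 and SF3 peaks one of 3348, while HNRNP peaks had one of 7405 and SRSF peaks one of 8076. A peak within the first 2697 lines (10% of the list) was found for 11 of the 58 genes (19.0%, 10.9 to 30.9%), beside 8.98% of all protein-coding genes. These were 5 of 12 SNRP genes, 4 of 9 SF3 genes, 1 SRSF gene and 1 HNRNP gene. Those shares include genes without a peak. Among genes with a TSS-window peak, the nearest one was that early in 11 of 48 (22.9%), beside 15.3% of all such genes. The earliest were SNRPD1 at 81, SF3A3 at 272 and SNRPB2 at 286, and the latest were SRSF6 at 26617, HNRNPA1 at 22738 and HNRNPL at 21338. The HNRNPL peak was thus the widest of the set and among the latest.

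**Figure D4:**
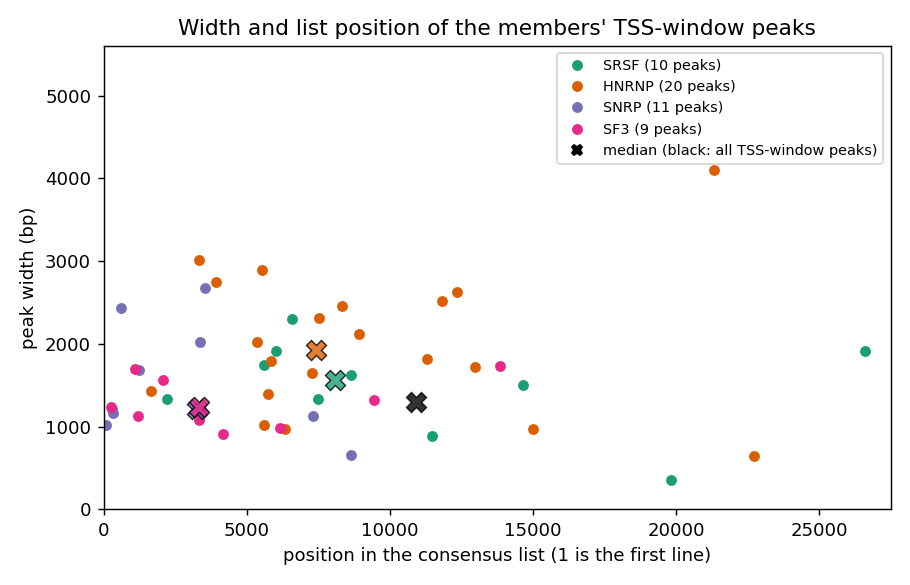
Each dot is 1 of the 50 distinct TSS-window peaks of the 58 genes, with its position in the consensus list of 26970 lines and its width in bp, coloured by family, and crosses mark medians. The crosses of the SNRP and SF3 peaks lie near 3268 and 3348, and that of all TSS-window peaks lies at 10931.

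The ETS letters were unevenly spread over the families. CCGGAAG was present in the promoters of 18 of the 58 genes (31.0%, 20.6 to 43.8%), beside 14.1% of all promoters of the same length. Among genes with a TSS-window peak it was 18 of 48 (37.5%, 25.2 to 51.6%), beside 21.8% of all such genes. The share over CpG-rich promoters was not computed. These letters were present in 6 of 9 SF3 genes (66.7%) and 7 of 12 SNRP genes (58.3%), but in 2 of 12 SRSF genes (16.7%) and 3 of 25 HNRNP genes (12.0%). The longer CCGGAAGT was present in 12 genes (20.7%), beside 6.16% of all promoters. These were SRSF4, SRSF5, HNRNPD, SNRPA1, SNRPB, SNRPE, SF3A1, SF3A2, SF3A3, SF3B2, SF3B4 and SF3B6.

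All 18 genes with CCGGAAG had a peak in the TSS window (82.4 to 100%), beside 86.4% of all genes with these letters. Of the 40 genes without the letters, 30 had a peak (75%, 59.8 to 85.8%), beside 50.9% of all genes without them. The 18 genes held 26 matches, 7 of them at least 2 each, and SF3B6 held 3. All 26 matches lay inside a peak, 19 lay within 100 bp of the TSS, and 13 were in the orientation of the gene. The search ran only from 250 bases before to 50 bases after the TSS, and a peak covered the TSS in all 18 genes. A place inside a peak was thus nearly given. These counts were not computed for all genes with the letters. The peaks of the 18 genes with the letters had a median list position of 3306, and those of the 30 genes without them one of 7067. Over all protein-coding genes these medians were 5539 and 11700. The median distance of a match from the midpoint of its peak was 177.5 bp. Within 100 bp of the midpoint, the letters were present in 7 of the 50 peaks (14.0%, 6.95 to 26.2%), beside 10.8% of all TSS-window peaks, an interval that contains that share. Over the whole peak they were present in 30 of the 50 (60.0%), beside 36.9% of all TSS-window peaks (3857 of 10448), where the median widths searched were 1594 and 1294 bp. The 7 peaks with a match within 100 bp were all SNRP or SF3 peaks.

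Other promoter letters were distributed differently. CCAAT was present in 30 of the 58 promoters (51.7%, 39.2 to 64.1%), beside 36.0% of all promoters, and in 19 of 25 HNRNP promoters (76.0%) but 2 of 9 SF3 promoters. The GC box GGGCGG, a site of SP family factors, was present in 56.9%, beside 61.4% of all promoters. TATAAA was present in 8 promoters (13.8%), beside 9.62%, and 4 of these were SRSF promoters. The AP-1 letters TGAGTCA were present in 2 promoters (3.45%), beside 3.56% of all promoters. The GC box and AP-1 shares were close to those of all promoters.

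A peak between divergent starts can belong to either gene. A divergent neighbour, the canonical TSS of another gene 1 to 1000 bp upstream on the opposite strand, was present for 18 of the 58 genes (31.0%), beside 19.5% of all genes, and 16 of the 18 had a peak in the window, beside 83.9% of all genes with such a neighbour. The neighbour was a protein-coding gene for 12 (20.7%), beside 9.44%. A single peak covered both starts in 15 pairs, a count that was not computed for all divergent pairs. The starts of a pair lay at most 1000 bp apart, and the median width of all TSS-window peaks was 1294 bp. SF3A1 and CCDC157 started 113 bp apart, HNRNPDL and ENOPH1 128 bp, SF3B3 and COG4 262 bp, SF3A2 and PLEKHJ1 495 bp, and HNRNPK and RMI1 590 bp. SNRPD2 and QPCTL were 713 bp apart, SNRPA and ACTMAP 726 bp, SRSF2 and MFSD11 788 bp, SNRPD3 and GUCD1 861 bp, and HNRNPA2B1 and CBX3 999 bp. Each of these starts lay under the peak of the pair. HNRNPA1 and CBX5, 604 bp apart, each had a peak of its own, and HNRNPH2 and GLA had none.

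A peak midpoint lay within the gene body of 39 genes (67.2%, 54.4 to 77.9%), beside 54.1% of all genes, and in 7 genes such a peak lay outside the TSS window. In HNRNPC it lay in intron 5 (372 bp wide, 50959 bp from the TSS), in HNRNPL in exon 9 (2212 bp, 10994 bp), in SF3B3 in intron 22 (528 bp, 45200 bp) and in HNRNPUL2-BSCL2 in intron 14. In SRSF5 and SRSF9 it lay upstream of the canonical TSS but inside the annotated gene, and that of SRSF9, 5004 bp upstream, was just outside the TSS window. The last was the peak in intron 1 of HNRNPA1L3. Within 50 kb of the TSS, 55 of the 58 genes had a peak (94.8%), beside 77.8% of all genes, and the median number was 2 for both. SF3B2 had the most with 9, followed by SNRPD2 with 8 and HNRNPUL2 and HNRNPUL2-BSCL2 with 7 each, while 18 genes had 1.

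Peaks were also counted at the other genes of splicing. Of 146 genes in 11 lists of spliceosome components and splicing regulators that are outside the 58, 132 had a peak in the TSS window (90.4%, 84.5 to 94.2%), beside 55.9% of all protein-coding genes and 74.2% of those with a CpG-rich promoter. All genes of the U1 particle list (8), the U4/U6.U5 tri-snRNP (17), the LSM ring (7), the minor spliceosome (9), the PRP19 complex and catalytic steps (23) and the exon junction complex (8) had one. Of the U2 associated factors 13 of 14 had one, the exception being RBM10. Of the SMN complex and assembly genes 15 of 17 had one, without SMN1 and SMN2, in whose windows 12.6% and 13.7% of the 50-base stretches were unique, whose part in this was not tested. Of the SR kinases and related genes 14 of 15 had one, without SRPK3, and of other regulators 13 of 15, without CELF2 and MATR3.

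The regulators known for epithelial or mesenchymal and tissue-specific splicing had a peak in 5 of 13 genes (38.5%, 17.7 to 64.5%), an interval that contains the share of all protein-coding genes. ESRP1 and ESRP2, which promote epithelial splice forms, RBFOX2, QKI and MBNL1 had a peak. The ESRP1 peak was 3977 bp wide and centred 361 bp upstream, and the ESRP2 peak at the TSS was 4781 bp wide. RBFOX1, RBFOX3, MBNL2, MBNL3, RBM47, RBM24, NOVA1 and NOVA2 had none in the window. The nearest peak to MBNL2 lay 1820 bp downstream of the TSS. In the window of RBFOX3, 2.93% of the 50-base stretches were unique, or 98.5% when the chromosomes alone were counted, and the part of this in its lack of a peak was not tested.

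**Figure D5:**
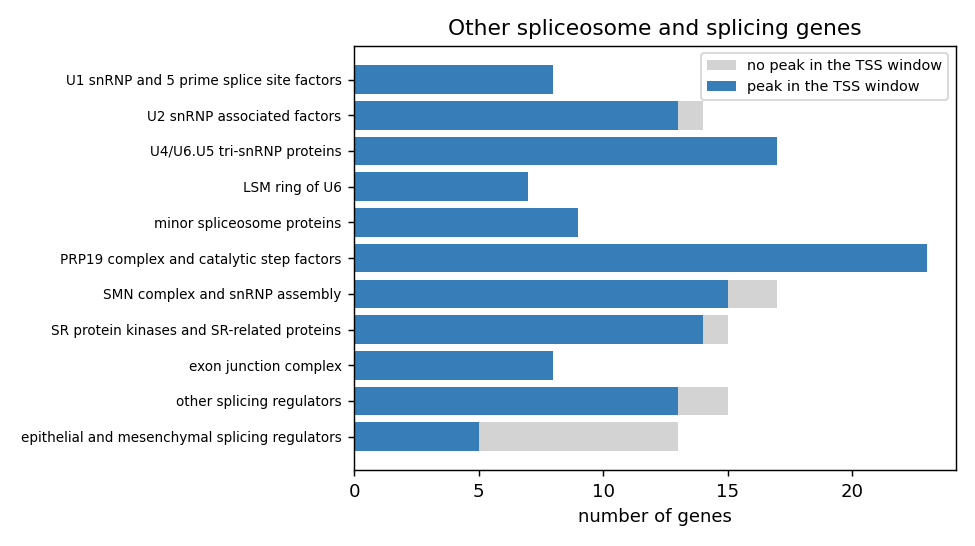
Bars give the number of genes in each of the 11 lists, in blue those with an ETS1 peak in the TSS window and in grey those without. The list labelled epithelial and mesenchymal, which also holds tissue-specific regulators, has 5 of 13 and is the only list in which grey outweighs blue.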

How the data were processed

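ETS1 was profiled by ChIP-Seq in SCC25, with the C20 antibody in 2 samples and 501A in 1. Per the labels and the methods, the authors aligned 50-base reads to hg19 (Bowtie 1.1.1), discarded those with more than 1 locus, pooled files with SAMtools 1.3, used MACS2 with a merged input as control, and took the peaks that passed IDR. The deposited list gives the position of each peak (chromosome, start and end) and holds no signal, score or value per sample, so its 3 columns belong to the pool.

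Canonical TSSs and exons came from GENCODE 44 on GRCh37, with 19881 of 20162 protein-coding genes having a canonical TSS. Genes were counted where a peak midpoint lay in the TSS window, and all peaks were used without a filter. Sequence came from the GRCh37 primary assembly. Uniqueness is the share of 50-base stretches in a TSS window that occur once in it. The 58 genes, the lists and the letters searched were chosen with earlier results of these data known. The genes named are all those without a TSS-window peak, with 2 or more, over 500 bp away, or at the extremes of width, list position or number of peaks, those with a protein-coding divergent neighbour, and 16 core genes. Assignment of peaks to windows was tested on simulated data (200 of 200 planted peaks recovered, 0 false, over 19881 genes). Peaks were planted only at genes without a close coding neighbour, and those outside the window lay downstream of it. Shared promoters and the upstream edge were thus not tried. Alternatives changed the window, the TSS, the rule of overlap, the letters and the part of the list used. Python 3.11.15 with pandas 2.3.3, numpy 2.4.6, scipy 1.17.1, pysam 0.24.0 and matplotlib 3.10.9 was used.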

Additional observations from a re-analysis of the deposited data

How the results depend on the processing

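The number of the 58 genes with a peak in the TSS window stayed between 43 and 49 over the windows, TSS choices and overlap rules tried. With 500 bp on each side it was 43 (74.1%, beside 46.7% of all protein-coding genes), without HNRNPF, HNRNPL, HNRNPU, SF3B6 and SNRPD3. With any annotated TSS it was 49 (84.5%, beside 60.6%), with SRSF11 added. With the most upstream TSS it was 45 (77.6%, beside 52.1%), without HNRNPH1, HNRNPH3, HNRNPL and SF3B2 and with SRSF11. With the first 13485 lines of the list only, it was 43, without HNRNPA1, HNRNPL, SF3A2, SRSF3 and SRSF6, while all protein-coding genes fell to 7224 (36.3%), the genes in the gene body class rose to 2 and those in no class to 5. Class by overlap of at least 1 bp also gave 2 genes in the gene body class. Without SRSF10, 47 of 57 genes had a peak (82.5%), and without readthrough and single-exon genes 45 of 54 (83.3%). A divergent neighbour within 500 bp was present for 11 genes, a setting for which the share of all genes was not computed. CCGGAAG was present in 30 of 50 peaks (60.0%, beside 36.9% of all TSS-window peaks) when the whole peak was searched. Within 300 bp of the midpoint it was present in 18, and the share of all TSS-window peaks was not computed. CCGGAAGT was present in 2 of 50 within 100 bp (4.0%), close to the 4.33% of all TSS-window peaks. The median distance of 189 bp became 69 bp to the nearest annotated TSS and 0 bp to the nearest edge of the peak. Both alternatives can only shorten the distance, and the edge value is 0 because the nearest peak covered the TSS in all 48 genes. No paired analysis was possible because the list pools the 3 samples, and for the same reason no replicate could be left out. The list carries no depth per sample, and a peak that failed the reproducibility threshold cannot be told apart from an unbound site.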

Other observations

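Of the 9 peaks within 50 kb of SF3B2, the peak furthest upstream was centred 50 bp from the TSS of BANF1 and stood at position 114 in the list. Upstream of HNRNPUL1, 3 peaks lay nearest to AXL, a receptor tyrosine kinase, at 421, 4538 and 7127 bp from its TSS and at list positions 17511, 9027 and 378. The peak in intron 22 of SF3B3 stood at position 856 and that in intron 1 of HNRNPA1L3 at position 1633, both narrower than 600 bp.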
